A study of Mus musculus with 22 samples.

Results

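The transcripts of 10 cytokine and cytokine antagonist genes were followed through eosinophil maturation in mouse bone marrow: Il4, Il13, Il6, Osm, Tnf, Il1b, Il1rn, Il15, Il16 and Tgfb1. They were picked by name, as the rows with these symbols among the 24982 gene rows of each count table, and all 10 were found in each of the 22 libraries. The choice was made with earlier results of these data known, so counts of these genes called describe this set only. The donors were wild type C57BL6 mice given 400 ng of recombinant murine IL-33, an alarmin that raises eosinophil numbers, intraperitoneally on each of 7 days. Starting with the last IL-33 dose they also received a neutralizing antibody to IL-5 (anti-IL5) or a control isotype antibody (isotype), at 400 µg per intraperitoneal injection and 3 injections on successive days. Both arms received IL-33, and no group without it is analysed here. Bone marrow cells positive for Ly6G, CD90.2, NK1.1 or CD45R were removed magnetically. Stages I to IV were then sorted by their surface levels of CD200R3, PIR-A/B, CD117, CD55, Siglec-F, CD29 and F4/80, at a stated purity of 95% or more. Each antibody arm held 3 libraries at stages I, III and IV and 2 libraries at stage II. The labels number these libraries and do not say whether each came from 1 mouse, from pooled mice or from separate mice, so p-values measure the spread between these libraries only.

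Eosinophils make cytokines of the type 2 response, such as IL-4 and IL-13, and are known for holding cytokine protein ready in granules, so that messenger RNA and stored protein need not move together. IL-5, the cytokine that the antibody neutralizes, drives eosinophil precursors to proliferate, mature and survive. Among the genes followed here, Il1b encodes a pro-inflammatory agonist of the IL-1 receptor, and Il1rn encodes the receptor antagonist that occupies the same receptor without signalling.

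The libraries were made from full-length cDNA amplified over 17 cycles, with no molecular identifiers and no record of strand. They held between 7161264 and 14781250 counts in genes and between 12359 and 13829 genes with a count. Levels are given in CPM, the read count of a gene relative to all counts in genes of the library, scaled by trimmed mean of M values (TMM) factors. The floor was set at 3 counts in a library, which corresponds to 0.203 to 0.419 CPM before TMM scaling. Fold changes, standard errors (SE) and Benjamini-Hochberg adjusted p-values are from edgeR's quasi-likelihood test over 12387 genes that passed a filter on low counts, and a gene was called at an adjusted p under 0.05. Of the 10 genes 9 passed the filter, and Il13 did not.

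Genes that define eosinophils were counted at each stage, with a different make-up early and late. The summed level of 10 eosinophil markers, among them the peroxidase gene Epx and the major basic protein gene Prg2, was 44670 to 54330 CPM in anti-IL5 and 43620 to 50760 CPM in isotype libraries at stage I, and 9165 to 10330 CPM in anti-IL5 and 10740 to 12120 CPM in isotype libraries at stage IV. All 10 had counts in all 8 groups. Epx had a mean of 56.4 CPM at stage IV and 18310 CPM at stage I under anti-IL5, and 389 CPM at stage IV and 22430 CPM at stage I under isotype. Ccr3, the eotaxin receptor gene, ran the other way, at 3229 CPM at stage IV and 26.6 CPM at stage I under anti-IL5, and 2719 CPM at stage IV and 4.89 CPM at stage I under isotype. Markers of other marrow lineages were also present. Of 8 basophil and mast cell markers 4 to 6 had a count in a group, with Tpsb2 and Mcpt4 at 0 throughout, and their summed level was 752 to 1677 CPM in anti-IL5 and 952 to 1491 CPM in isotype libraries at stage I. At stage III it was 43.3 to 55.5 CPM in anti-IL5 libraries, below the 188 to 541 CPM of isotype libraries. All 10 neutrophil markers had counts in each group, and their sum was 7270 to 8234 CPM in anti-IL5 and 5255 to 7803 CPM in isotype libraries at stage III, and 707 to 1730 CPM in anti-IL5 and 315.5 to 496 CPM in isotype libraries at stage IV. Mean sums of 9 monocyte and macrophage markers ran from 968 CPM at isotype stage I to 2201 CPM at isotype stage III. At stage IV they were 1026 CPM under anti-IL5 and 1479 CPM under isotype. Mean sums of megakaryocyte and platelet markers were 110.6 to 967.6 CPM, and of B lineage markers 12.5 to 118.9 CPM. Dendritic and erythroid mean sums were at most 7.54 and 24.05 CPM. T and natural killer cell genes were near 0, with Thy1 and Ncr1 at 0 in all 8 groups and the list's sum at 2.19 to 13.5 CPM. The part of these lineages in the levels of the cytokine genes was not tested. In sorted bulk samples, a change in the number of cells that express a gene cannot be told apart from a change in the RNA per cell.

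Set side by side per kilobase of transcript, Il4, Osm, Il16 and Il1rn were the most abundant of the 10 genes at stage IV and Il13 the least. In mean CPM per kilobase, Il4 stood at 369 in anti-IL5 and 316.2 in isotype libraries of stage IV. Il16, Osm and Il1rn stood at 120.1, 64.5 and 69.5 in anti-IL5 libraries and at 93.2, 168 and 115 in isotype libraries. Tgfb1 and Il6 were intermediate, at 39.0 and 34.2 in anti-IL5 libraries and 50.6 and 22.3 in isotype libraries. Il15, Tnf, Il1b and Il13 were the lowest at stage IV, at 6.24, 3.75, 0.558 and 0.264 in anti-IL5 libraries and 1.15, 3.83, 1.84 and 0.670 in isotype libraries. A group was called near the floor when its mean was under 1 CPM or when a library of it had 3 counts or fewer. By that rule Il13 was near the floor in 8 of 8 groups, Il1b in 5 of 8, and Il1rn in the isotype group of stage I alone. The remaining 7 genes were above it in each group.

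**Figure D1:**
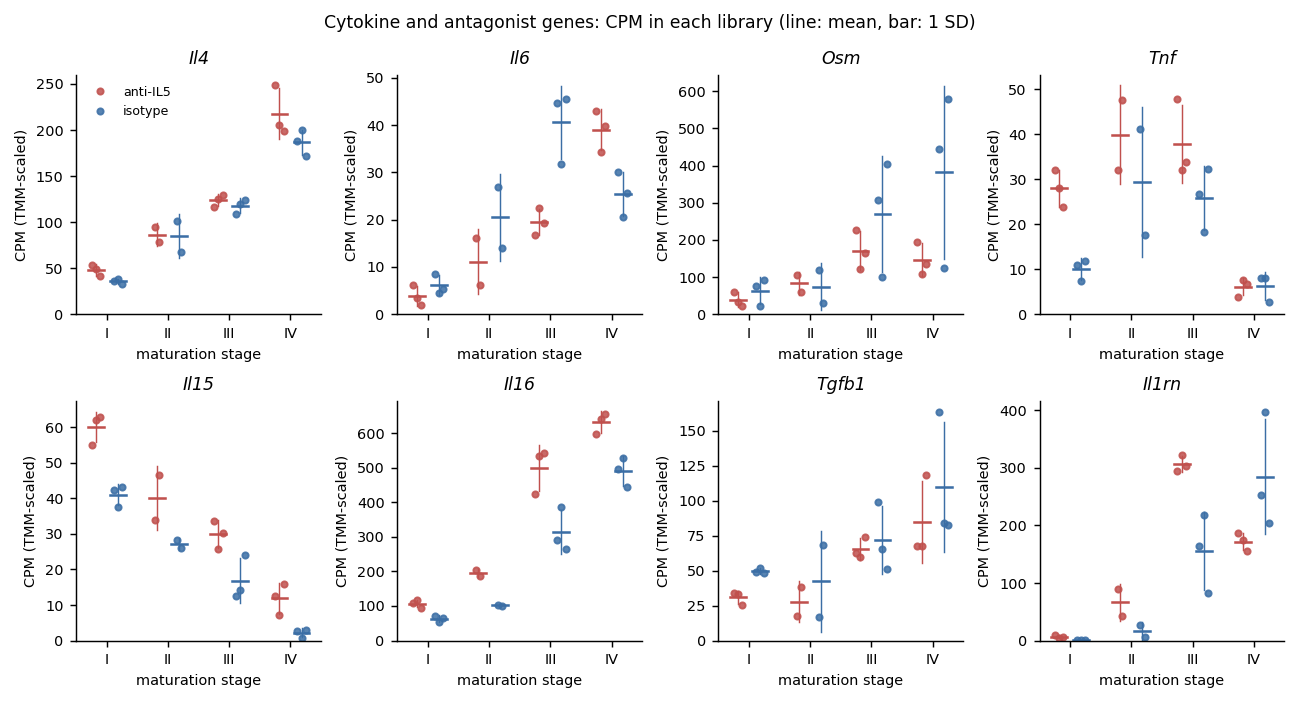
CPM of 8 of the genes in each library (points), with anti-IL5 in red on the left and isotype in blue on the right of each stage, group means as horizontal lines and 1 SD as vertical bars. Il4, Il16 and Il1rn are higher at stage IV than at stage I under both antibodies and Il15 is lower, and Il15 and Il16 lie higher in anti-IL5 than in isotype libraries at each stage.

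Most of these genes changed with stage. Comparing stage IV with stage I, Il4, Il6, Osm, Il16, Tgfb1 and Il1rn rose under both antibodies, Il15 fell under both, and Tnf fell under anti-IL5. That made 8 of 9 tested genes called under anti-IL5, 6 higher and 2 lower, where 63.5% of all genes tested were called. Under isotype 7 of 9 were called, 6 higher and 1 lower, where 66.2% of all genes were called. Over all genes tested, 3802 were called higher and 4066 lower under anti-IL5, and 4002 higher and 4201 lower under isotype. The median log2 fold change of the 9 genes was 1.90 under anti-IL5 and 2.04 under isotype, beside medians of -0.06 under anti-IL5 and -0.04 under isotype over all genes tested. Between successive stages of the anti-IL5 arm, 4 of 9 were called for stage II against I (12.4% of all genes), 4 of 9 for III against II (39.5%) and 4 of 9 for IV against III (23.8%). In the isotype arm, 5 of 9 were called for stage II against I (10.6% of all genes), 3 of 9 for III against II (37.1%) and 4 of 9 for IV against III (33.6%). The calls of the first and middle steps were all higher at the later stage, and those of the last step were 2 higher and 2 lower in each arm.

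**Figure D2:**
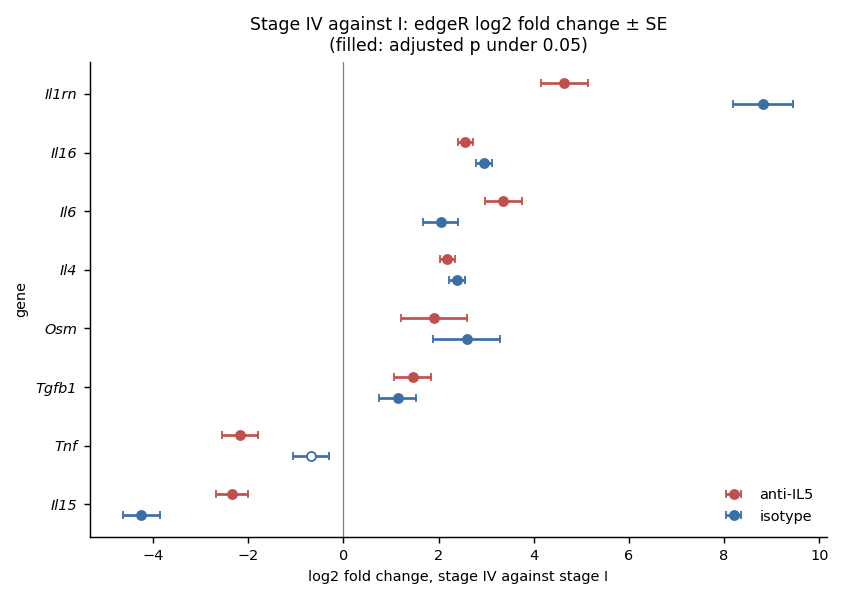
edgeR log2 fold change of stage IV against stage I with its SE, for anti-IL5 in red above isotype in blue, filled where the adjusted p was under 0.05. Il1rn has the largest rise and Il15 the largest fall of these 8 genes under isotype, at 8.82 and -4.25.

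Fewer of the genes were called between the antibodies, and each call was higher under anti-IL5. At stage I, Il1rn, Tnf and Il16 were higher in anti-IL5 than in isotype libraries, which is 3 of 9 genes called where 4.42% of all genes were. Il16 was the gene called at stage II (1 of 9, 1.75% of all genes) and at stage III (1 of 9, 6.37%), and Il15 the one called at stage IV (1 of 9, 1.05%). With the 4 stages averaged, Il15, Il16, Il1rn and Tnf were called higher, 4 of 9 genes where 18.9% of all genes were called. As the genes were chosen with earlier results of these data known, these counts are no test of enrichment. The median log2 difference over the 9 genes was 0.43 at stage I, 0.45 at stage II, 0.56 at stage III and -0.03 at stage IV, with the median of all genes between -0.01 and 0.02.

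**Figure D3:**
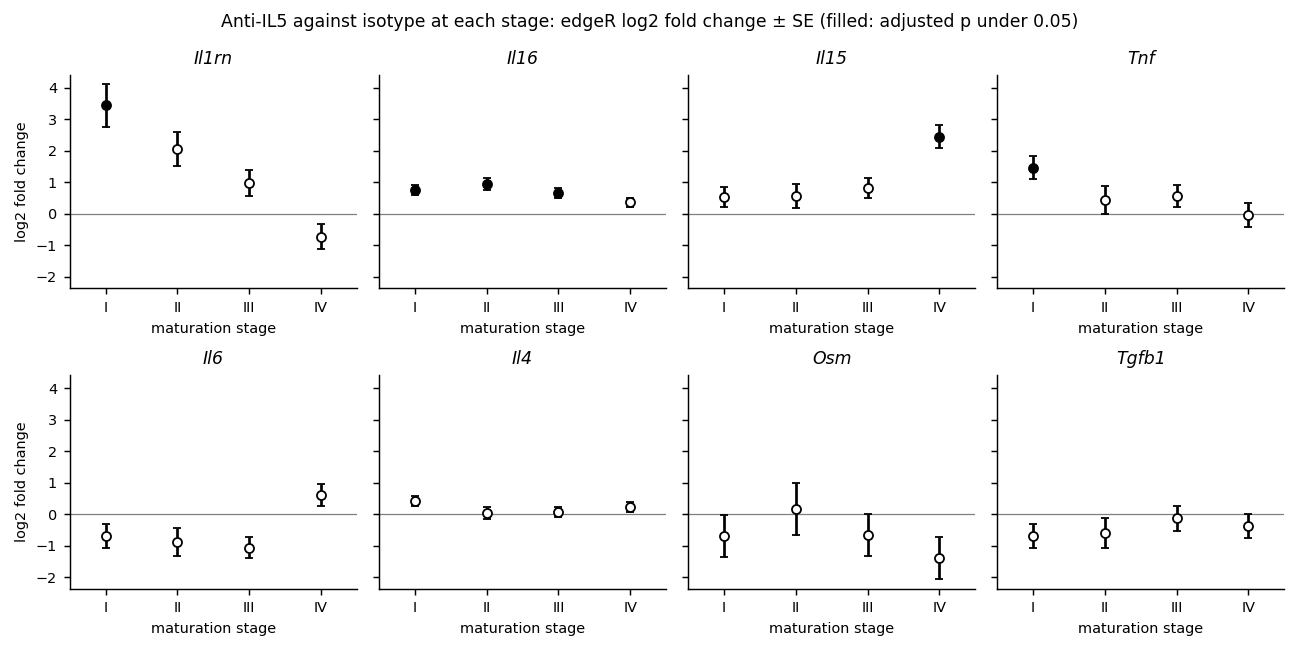
edgeR log2 fold change of anti-IL5 against isotype with its SE for 8 genes at the 4 stages, filled where the adjusted p was under 0.05. Il1rn runs through 3.45, 2.06, 0.98 and -0.73 from stage I to IV, Il16 stays between 0.37 and 0.94, and Il15 stands at 2.46 at stage IV.

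Il4, which encodes the cytokine that directs type 2 helper T cell differentiation and class switching to IgE, rose through maturation and differed little between the antibodies. At stage I it had 53.8, 48.9 and 41.3 CPM in anti-IL5 libraries, against 35.9, 38.2 and 32.9 CPM in isotype libraries. At stage II the values were 95.2 and 77.9 CPM in anti-IL5 and 102 and 67.7 CPM in isotype libraries. The groups did not overlap at stage I, with the anti-IL5 libraries higher, and overlapped at stage II. Stage III gave 117, 125 and 129.6 CPM in anti-IL5 and 109, 119.8 and 124 CPM in isotype libraries. Stage IV gave 249, 205 and 199 CPM in anti-IL5 and 188, 199.5 and 172 CPM in isotype libraries. Both later stages overlapped between the antibodies, and the lowest stage IV library lay above the highest stage III library of its own arm. Ordered by mean, the 8 groups ran in pairs by stage, IV above III above II above I, with anti-IL5 the higher of each pair. Within the pairs of stages II, III and IV the ranges overlapped, and between neighbouring pairs they did not. Before TMM scaling the ranges of stages II and III did overlap, with isotype stage II replicate 1 at 103.8 CPM and isotype stage III replicate 1 at 102.4 CPM.

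The log2 fold change of Il4 for stage IV against I was 2.18 ± 0.16 (adjusted p = 1.35e-10) under anti-IL5 and 2.39 ± 0.16 (adjusted p = 3.00e-11) under isotype. Each step was called in both arms. Stage II exceeded stage I by 0.85 ± 0.17 (adjusted p = 0.00218) under anti-IL5 and 1.25 ± 0.17 (adjusted p = 5.18e-05) under isotype. Stage III exceeded stage II by 0.52 ± 0.17 (adjusted p = 0.0198) under anti-IL5 and 0.48 ± 0.17 (adjusted p = 0.0331) under isotype, and stage IV exceeded stage III by 0.81 ± 0.15 (adjusted p = 0.000350) under anti-IL5 and 0.66 ± 0.15 (adjusted p = 0.00161) under isotype. The call of the middle step was lost without anti-IL5 stage II replicate 2 (adjusted p = 0.189) or anti-IL5 stage III replicate 3 (adjusted p = 0.0563) under anti-IL5, and without isotype stage II replicate 2 (adjusted p = 0.426), isotype stage III replicate 2 (adjusted p = 0.0724) or isotype stage III replicate 3 (adjusted p = 0.0732) under isotype. Without isotype stage II replicate 1 it was 0.82, and it was lost with no filter on low counts in both arms (adjusted p = 0.0580 under anti-IL5 and 0.0606 under isotype), in a fit of the compared groups alone (0.0645 under anti-IL5 and 0.183 under isotype), and, under isotype, with relative log expression (RLE) size factors (0.0612). The stage II against I call under anti-IL5 was lost without anti-IL5 stage II replicate 1 (adjusted p = 0.0587). Between the antibodies the log2 difference of Il4 was 0.43 ± 0.15 (adjusted p = 0.126) at stage I, 0.03 ± 0.19 (adjusted p = 0.974) at stage II, 0.07 ± 0.15 (adjusted p = 0.832) at stage III and 0.22 ± 0.15 (adjusted p = 0.748) at stage IV. Averaged over stages it was 0.19 ± 0.08 (adjusted p = 0.108), and it was called without isotype stage II replicate 1 (adjusted p = 0.0124).

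Il13, which encodes a cytokine that shares a receptor chain with IL-4 and drives mucus production, lies next to Il4 on chromosome 11 and was hardly detected. No library of stages I and II held a count of it. At stage III it had 0, 2 and 0 counts in the anti-IL5 libraries and 3, 2 and 6 in the isotype libraries. At stage IV it had 5, 2 and 2 counts in the anti-IL5 libraries and 9, 12 and 8 in the isotype libraries. In all, 51 counts fell on Il13 over 22 libraries, 12 of which had none and 17 of which were at or under the floor. The isotype libraries of stage IV were the only group with all libraries above the floor, and each of them exceeded each anti-IL5 library of that stage. Because the filter on low counts removed the gene it has no result in the main test. Refitted with no filter, the log2 difference between anti-IL5 and isotype at stage IV was -1.33 ± 1.42 (adjusted p = 0.975), which was not called. In that fit stage IV against I was called for Il13, at an adjusted p of 0.0494 under anti-IL5 and 0.00949 under isotype. No fold is given, since all stage I libraries were at 0. Il5, the third type 2 cytokine gene of this locus, had 4 counts in 1 anti-IL5 library of stage I and 5 counts in 1 isotype library of stage III, and none in the other 20 libraries.

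The type 2 cytokine locus of mouse also holds Rad50, whose gene carries the locus control region between Il5 and Il13, and is flanked by Kif3a and Irf1. Il4 spans 11:53602982-53618669 and Il13 spans 11:53631324-53634702, both on the minus strand of mm10. The promoters of the 2 neighbours are shown because one gene was abundant and the other near the floor. Each is the 250 bases ahead of a start site in RefSeq on GRCm38.p6, the Il4 window at chr11:53618666-53618915 and the Il13 window at chr11:53634703-53634952, both on the minus strand and written 5′ to 3′. Capitals mark the matches to the motifs searched on both strands: STAT (TTCNNNGAA), GATA (NGATAA with A or T at N), C/EBP (TTGCNNAA) and AP-1 (TGANTCA).
Il4: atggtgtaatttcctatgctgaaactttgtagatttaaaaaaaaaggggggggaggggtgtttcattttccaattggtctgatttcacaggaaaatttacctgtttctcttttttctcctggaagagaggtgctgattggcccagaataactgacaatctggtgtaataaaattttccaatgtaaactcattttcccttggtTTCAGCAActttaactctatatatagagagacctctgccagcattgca
Il13: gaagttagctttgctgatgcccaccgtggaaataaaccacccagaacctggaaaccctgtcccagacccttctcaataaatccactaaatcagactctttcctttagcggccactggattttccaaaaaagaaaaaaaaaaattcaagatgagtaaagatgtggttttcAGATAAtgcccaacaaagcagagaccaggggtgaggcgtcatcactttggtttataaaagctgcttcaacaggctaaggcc
The Il4 window shown held 1 C/EBP match and the Il13 window 1 GATA match. RefSeq lists a second Il4 window, at chr11:53617339-53617588 on the minus strand, which held no match to the 4 motifs. Of 32817 windows of this length over the RefSeq genes, 9.57% held the C/EBP motif, 16.6% the GATA motif, 7.01% the STAT motif and 6.75% the AP-1 motif.

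Around these genes, Irf1, the transcription factor gene at the edge of the locus, rose with maturation as Il4 did, while Rad50 fell. Of 6 locus genes 4 were tested, Il4 among them, and all 4 were called for stage IV against I in both arms, 3 higher and 1 lower, where 63.5% of all genes were called under anti-IL5 and 66.2% under isotype. Irf1 averaged 313.7 ± 23.4 CPM at stage IV and 91.3 ± 14.3 CPM at stage I under anti-IL5, a log2 change of 1.78 ± 0.22 (adjusted p = 3.44e-07). Rad50 averaged 66.1 ± 10.7 CPM at stage IV and 109.5 ± 3.80 CPM at stage I, a log2 change of -0.73 ± 0.14 (adjusted p = 8.67e-05). Irf1 was also the locus gene called between antibodies, with 91.3 ± 14.3 CPM in anti-IL5 and 43.5 ± 7.41 CPM in isotype libraries at stage I (log2 difference 1.07 ± 0.22, adjusted p = 0.00572). The summed level of the basophil markers at stage IV was 22.5 to 37.2 CPM in anti-IL5 and 23.5 to 32.0 CPM in isotype libraries, and their part in the Il4 values was not tested.

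Il6, which encodes a pleiotropic cytokine of acute inflammation, rose with maturation in both arms. Its highest group mean was at stage IV under anti-IL5 and at stage III under isotype, while the interaction of stage and antibody was not called (adjusted p = 0.246). Its stage I level was 6.16, 3.52 and 1.85 CPM in anti-IL5 libraries and 8.50, 4.58 and 5.28 CPM in isotype libraries. At stage II it had 16.0 and 6.28 CPM in anti-IL5 libraries and 27.0 and 14.0 CPM in isotype libraries. The antibodies overlapped at both of these stages. Stage III gave 16.9, 22.4 and 19.2 CPM in anti-IL5 libraries, against 44.8, 31.8 and 45.5 CPM in isotype libraries. Stage IV gave 42.9, 34.3 and 39.9 CPM in anti-IL5 libraries, against 30.0, 20.6 and 25.6 CPM in isotype libraries. The groups did not overlap at either stage, with the anti-IL5 libraries lower at stage III and higher at stage IV. Ordered by mean, the isotype group of stage III and the anti-IL5 group of stage IV stood highest and overlapped, and the 2 stage I groups stood lowest and overlapped.

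For stage IV against I the log2 fold change of Il6 was 3.36 ± 0.39 (adjusted p = 1.81e-07) under anti-IL5 and 2.04 ± 0.37 (adjusted p = 4.76e-05) under isotype. The first step was called in both arms, at 1.54 ± 0.42 (adjusted p = 0.0177) under anti-IL5 and 1.73 ± 0.40 (adjusted p = 0.00747) under isotype. It was lost without anti-IL5 stage I replicate 2 (adjusted p = 0.0615), anti-IL5 stage I replicate 3 (adjusted p = 0.0950) or anti-IL5 stage II replicate 1 (adjusted p = 0.494) under anti-IL5, without isotype stage II replicate 1 (adjusted p = 0.195) under isotype, and, under anti-IL5, in a fit of the compared groups alone (adjusted p = 0.104). Stage III against II gave 0.81 ± 0.41 (adjusted p = 0.119) under anti-IL5 and 0.99 ± 0.40 (adjusted p = 0.0563) under isotype. It was called without anti-IL5 stage II replicate 1 (adjusted p = 0.0204) and without isotype stage II replicate 1 (adjusted p = 0.0286), and under isotype by DESeq2 (adjusted p = 0.0490). With the library number as a block this step was called under anti-IL5 (adjusted p = 0.0255) and isotype (0.0137). The block within antibody called it as well (0.0275 under anti-IL5 and 0.022 under isotype). Stage IV exceeded stage III under anti-IL5 by 1.00 ± 0.35 (adjusted p = 0.0404), while under isotype the log2 change was -0.68 ± 0.34 (adjusted p = 0.138), called only in a fit of the compared groups alone (adjusted p = 0.0337). The anti-IL5 call rested on all 6 libraries, since it was lost without any 1 of them, at adjusted p-values between 0.0586 and 0.135.

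Between the antibodies the log2 difference of Il6 was -0.70 ± 0.39 (adjusted p = 0.356) at stage I, -0.88 ± 0.44 (adjusted p = 0.390) at stage II, -1.06 ± 0.35 (adjusted p = 0.0713) at stage III and 0.62 ± 0.34 (adjusted p = 0.645) at stage IV, none of them called. The stage III difference was called by DESeq2 (adjusted p = 0.0336), in a fit of the compared groups alone (0.0270) and with the library number as a block (0.0334). The antibody effect at stage IV minus that at stage III was 1.68 ± 0.49 (adjusted p = 0.132), which DESeq2 called (adjusted p = 0.0448). Averaged over stages the difference was -0.51 ± 0.19 (adjusted p = 0.0692). It was called by DESeq2 (adjusted p = 0.0456) and with the library number as a block (0.02875). It was also called without anti-IL5 stage I replicate 1 (adjusted p = 0.0222), anti-IL5 stage II replicate 1 (adjusted p = 0.0146) or isotype stage II replicate 2 (adjusted p = 0.0340). The basophil markers were lower in anti-IL5 than in isotype libraries at stage III as well, with Cpa3 at a mean of 11.7 CPM in anti-IL5 and 212 CPM in isotype libraries, and their part in the Il6 values was not tested.

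The Il6 window at chr5:30012864-30013113, on the plus strand of GRCm38.p6, is shown because Il6 rose with Il4 and because it held 3 of the 4 motifs searched, 1 match each to AP-1, C/EBP and GATA, marked by capitals in that order.
Il6: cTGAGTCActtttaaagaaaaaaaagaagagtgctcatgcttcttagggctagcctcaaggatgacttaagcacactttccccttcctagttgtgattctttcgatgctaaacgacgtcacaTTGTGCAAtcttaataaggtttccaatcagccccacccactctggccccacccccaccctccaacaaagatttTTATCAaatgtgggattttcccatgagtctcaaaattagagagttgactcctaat
It held no match to the STAT letters, and nor did the windows of Il4 and Il13.

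Osm, which encodes oncostatin M, a cytokine of the IL-6 family that acts on stromal, epithelial and liver cells, rose with maturation but varied widely between libraries of 1 group. In the earliest stage it had 61.0, 33.6 and 23.4 CPM in anti-IL5 libraries and 77.2, 21.5 and 91.4 CPM in isotype libraries. Its stage II level was 105 and 60.9 CPM in anti-IL5 libraries and 118 and 29.8 CPM in isotype libraries. In each isotype group the library numbered 2 was the lowest. Stage III gave 227, 122 and 164 CPM in anti-IL5 libraries and 306.1, 99.9 and 403 CPM in isotype libraries. Stage IV gave 195, 109 and 135 CPM in anti-IL5 libraries and 444, 125 and 578 CPM in isotype libraries. The isotype library numbered 2 was again the lowest at both stages, and the anti-IL5 library numbered 1 was the highest of its group at all 4. The groups overlapped between the antibodies at each stage, and the SD reached 232 CPM around a mean of 382 CPM in the isotype group of stage IV. By mean level that group stood first and the anti-IL5 group of stage I last, and the neighbours in that order overlapped in all but 1 case, anti-IL5 stage IV above anti-IL5 stage II.

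For stage IV against I the log2 fold change of Osm was 1.90 ± 0.69 (adjusted p = 0.0249) under anti-IL5 and 2.59 ± 0.70 (adjusted p = 0.00398) under isotype. The anti-IL5 call was lost without anti-IL5 stage I replicate 2 (adjusted p = 0.0717), anti-IL5 stage I replicate 3 (adjusted p = 0.0870) or anti-IL5 stage IV replicate 1 (adjusted p = 0.0746). The steps of Osm were not called in either arm in the main fit. With the number as a block within antibody, stage II against I was called (adjusted p = 0.00120 under anti-IL5 and 0.0469 under isotype). Stage III against II was called as well (5.98e-05 under anti-IL5 and 6.085e-06 under isotype), and under isotype also with the number as a block across the arms (0.00448). Each of these steps has 2 equal-numbered pairs, too few to judge whether the numbers pair the libraries. For stage IV against III of the isotype arm, where libraries of equal number deviated together, the log2 change was 0.50 ± 0.66 (adjusted p = 0.601), and with the number as a block it was 0.46 and called (adjusted p = 0.0233). Stage III against II of the isotype arm, at 1.87 ± 0.79 (adjusted p = 0.0781), was called by DESeq2 (adjusted p = 0.0416) and without isotype stage II replicate 1 (adjusted p = 0.0474) or isotype stage III replicate 2 (adjusted p = 0.0400); in the anti-IL5 arm, at 1.04 ± 0.77 (adjusted p = 0.303), it was called in a fit of the compared groups alone (0.0182). Between the antibodies the log2 difference was -0.70 ± 0.68 (adjusted p = 0.660) at stage I, 0.17 ± 0.82 (adjusted p = 0.968) at stage II, -0.66 ± 0.66 (adjusted p = 0.618) at stage III and -1.38 ± 0.67 (adjusted p = 0.563) at stage IV.

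**Figure D4:**
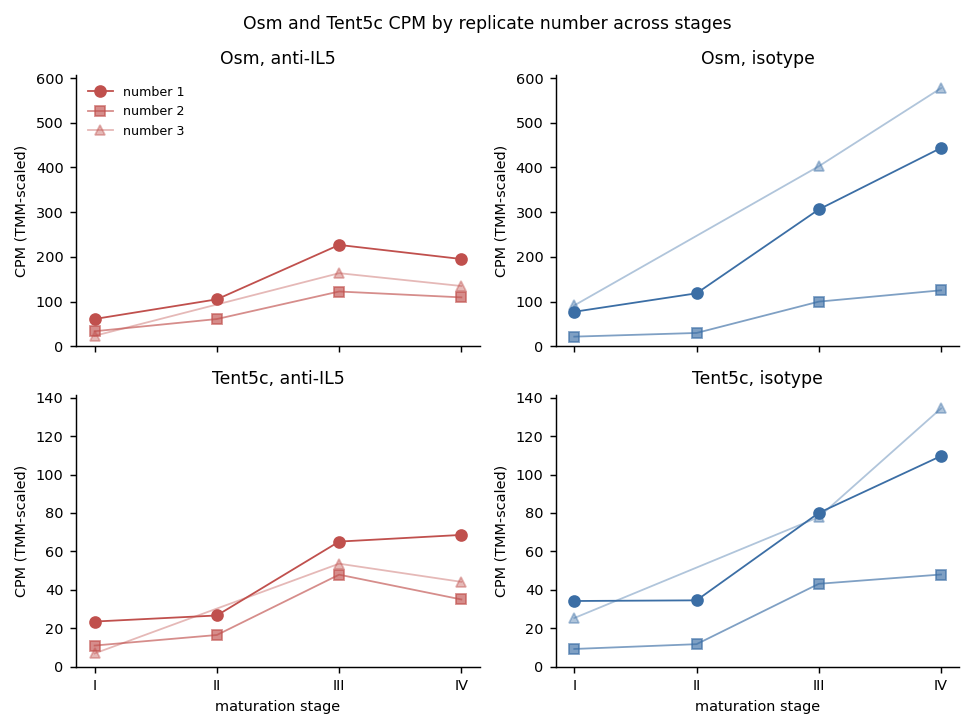
CPM of Osm (top) and Tent5c (bottom) in each library against maturation stage, with libraries of equal number joined by a line, anti-IL5 on the left and isotype on the right; stage II has no library numbered 3. The isotype line numbered 2 lies below the others at each stage, at 125 CPM of Osm at stage IV against 444 and 578 CPM.

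The 3 genes whose log2 CPM followed Osm most closely over the 22 libraries, among 9069 genes compared, were Tent5c, a poly(A) polymerase gene (Pearson r = 0.975), Ptgs2, which encodes cyclooxygenase 2 (0.904), and Cxcl2, a neutrophil-attracting chemokine gene (0.903). These correlations are over libraries that share stages and numbers and are given as a description. At stage IV Tent5c had 68.6, 35.0 and 44.1 CPM in anti-IL5 and 109.7, 48.0 and 134 CPM in isotype libraries. Ptgs2 had 20.6, 12.3 and 6.83 CPM in anti-IL5 and 58.2, 8.79 and 97.2 CPM in isotype libraries. Cxcl2 had 115, 72.3 and 61.5 CPM in anti-IL5 and 159.6, 14.2 and 271 CPM in isotype libraries. In each of these genes the isotype library numbered 2 was the lowest isotype library of stage IV, as for Osm.

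Tnf, which encodes the pro-inflammatory cytokine tumour necrosis factor, was lower at stage IV than at stage III in both arms and was higher under anti-IL5 at stage I. Stage I gave 32.1, 28.0 and 23.9 CPM in anti-IL5 libraries, against 11.0, 7.39 and 11.9 CPM in isotype libraries. In stage II cells it had 32.1 and 47.6 CPM in anti-IL5 libraries and 41.2 and 17.5 CPM in isotype libraries. The antibodies did not overlap at stage I, with anti-IL5 higher, and overlapped at stage II. Stage III gave 47.8, 32.1 and 33.7 CPM in anti-IL5 libraries and 26.7, 18.3 and 32.3 CPM in isotype libraries. Stage IV gave 3.94, 7.65 and 6.83 CPM in anti-IL5 libraries and 8.0, 8.11 and 2.71 CPM in isotype libraries. Both of these stages overlapped between the antibodies, and each stage IV library was below each stage III library. By mean level anti-IL5 stage II stood first, and the neighbours in the order overlapped down to isotype stage III, with isotype stage I and both stage IV groups below them.

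The log2 difference of Tnf between anti-IL5 and isotype was 1.47 ± 0.37 (adjusted p = 0.0253) at stage I, 0.45 ± 0.43 (adjusted p = 0.733) at stage II, 0.56 ± 0.35 (adjusted p = 0.382) at stage III and -0.03 ± 0.38 (adjusted p = 1.0) at stage IV. The stage I call was lost without anti-IL5 stage I replicate 1 (adjusted p = 0.0972), anti-IL5 stage I replicate 2 (adjusted p = 0.0688), isotype stage I replicate 1 (adjusted p = 0.0527), isotype stage I replicate 2 (adjusted p = 0.152) or isotype stage I replicate 3 (adjusted p = 0.0524), and held without anti-IL5 stage I replicate 3. Averaged over stages the difference was 0.61 ± 0.19 (adjusted p = 0.0291), and it was lost without anti-IL5 stage I replicate 1 (adjusted p = 0.0508), isotype stage I replicate 2 (adjusted p = 0.0564), anti-IL5 stage II replicate 2 (adjusted p = 0.0805), isotype stage II replicate 2 (adjusted p = 0.0854), anti-IL5 stage III replicate 1 (adjusted p = 0.0532) or anti-IL5 stage IV replicate 2 (adjusted p = 0.0567). Whether the effect changes with stage was not shown (adjusted p = 0.506 for the interaction of stage and antibody). Stage IV was below stage III by a log2 change of -2.61 ± 0.38 (adjusted p = 2.59e-05) under anti-IL5 and -2.03 ± 0.38 (adjusted p = 0.000244) under isotype. Set against stage I, it was lower under anti-IL5, at -2.17 ± 0.38 (adjusted p = 3.85e-05), and not called under isotype, at -0.68 ± 0.37 (adjusted p = 0.114). Under isotype Tnf rose at stage II against I by 1.53 ± 0.40 (adjusted p = 0.0162), which was lost without isotype stage I replicate 2 (adjusted p = 0.0760) or isotype stage II replicate 1 (adjusted p = 0.409); under anti-IL5 this step was 0.51 ± 0.39 (adjusted p = 0.443). Stage III against II gave -0.07 ± 0.39 (adjusted p = 0.907) under anti-IL5 and -0.19 ± 0.40 (adjusted p = 0.750) under isotype.

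Il1b, the IL-1 receptor agonist gene, was scarce and uneven. At stage I it had 5, 14 and 0 counts in anti-IL5 libraries and 11, 3 and 12 in isotype libraries. Stage II gave 6 and 27 counts in anti-IL5 libraries and 10 and 1 in isotype libraries. The groups overlapped and 3 of these 10 libraries were at or under the floor of 3 counts. Stage III gave 7, 62 and 113 counts in anti-IL5 libraries and 0, 13 and 84 in isotype libraries. Stage IV gave 7, 2 and 14 counts in anti-IL5 libraries and 31, 11 and 43 in isotype libraries. The 4 highest values, 113, 84, 62 and 43 counts, came from 3 groups, each of which also held a library of 13 counts or fewer. None of the 12 comparisons between 2 groups was called for Il1b, with adjusted p-values from 0.105 to 0.984. Exons of Il1b overlap those of the antisense gene Il1bos, which had at most 37 counts in a library, and without strand reads of the 2 genes cannot be told apart.

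**Figure D5:**
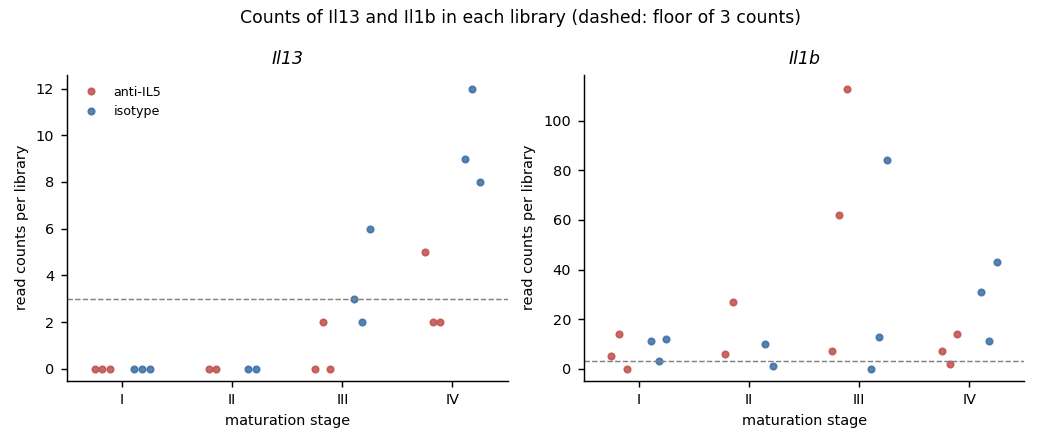
Read counts of Il13 (left) and Il1b (right) in each library by stage, anti-IL5 in red on the left and isotype in blue on the right, with the floor of 3 counts dashed. Il13 has no count at stages I and II and at most 12 counts in a library, and Il1b spreads between 0 and 113 counts at stage III.

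Il1rn, the IL-1 receptor antagonist gene, ranged between group means of 0.595 and 307.2 CPM, and its difference between the antibodies changed with stage in the interaction test. Its stage I level was 9.59, 4.95 and 6.23 CPM in anti-IL5 libraries, against 0.887, 0.520 and 0.377 CPM in isotype libraries. The isotype values rest on 12, 5 and 4 counts. At stage II it had 89.5 and 43.4 CPM in anti-IL5 libraries and 27.0 and 5.32 CPM in isotype libraries. The anti-IL5 libraries were higher without overlap at both stages, and the isotype libraries of stage I were near the floor. Stage III gave 295.2, 323 and 304 CPM in anti-IL5 libraries, against 164, 218 and 83.5 CPM in isotype libraries. Stage IV gave 186, 174 and 156 CPM in anti-IL5 libraries, against 253, 397 and 204 CPM in isotype libraries. The groups did not overlap at these stages either, with anti-IL5 higher at stage III and lower at stage IV. By mean level anti-IL5 stage III stood first and overlapped isotype stage IV, anti-IL5 stage IV overlapped isotype stage III, and the 2 stage I groups stood last.

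The log2 difference of Il1rn between anti-IL5 and isotype was 3.45 ± 0.67 (adjusted p = 0.00538) at stage I, 2.06 ± 0.54 (adjusted p = 0.0571) at stage II, 0.98 ± 0.40 (adjusted p = 0.156) at stage III and -0.73 ± 0.40 (adjusted p = 0.643) at stage IV. The stage I call held without each of the 6 libraries. The stage II difference was called by DESeq2 (adjusted p = 0.0215), with the library number as a block (0.0253) and without isotype stage II replicate 1 (adjusted p = 0.00249). Averaged over stages it was 1.44 ± 0.26 (adjusted p = 0.000706), a call that held without each single library. The interaction of stage and antibody was called for Il1rn (adjusted p = 0.0281), 1 of 9 genes tested where 1.07% of all genes were called. That call was lost without anti-IL5 stage I replicate 1 (adjusted p = 0.0584), isotype stage I replicate 2 (adjusted p = 0.0650), isotype stage I replicate 3 (adjusted p = 0.0688), anti-IL5 stage III replicate 3 (adjusted p = 0.0503), anti-IL5 stage IV replicate 1 (adjusted p = 0.0524), anti-IL5 stage IV replicate 2 (adjusted p = 0.0721), anti-IL5 stage IV replicate 3 (adjusted p = 0.0763) or isotype stage IV replicate 2 (adjusted p = 0.0650), and with no filter on low counts (adjusted p = 0.0840). Compared stage by stage, the effect at IV minus that at III was -1.71 ± 0.57 (adjusted p = 0.216). With edgeR, 0 of 9 genes were called for that difference, where 0.638% of all genes were called. An unadjusted p under 0.05 was found for 3 of 9, where 10.2% of all genes had one. DESeq2 called 2 of 9, Il6 and Il15, and 255 genes over all genes. The differences of effect between stages II and I and between III and II had 0 of 9 genes called and 0 with an unadjusted p under 0.05 with edgeR, and 0 with DESeq2. Over all genes, 0.0% were called in both by edgeR, with 2.53% and 5.76% at an unadjusted p under 0.05, and 3 and 14 genes were called by DESeq2.

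With maturation Il1rn rose by a log2 change of 4.64 ± 0.49 (adjusted p = 9.50e-08) under anti-IL5 and 8.82 ± 0.64 (adjusted p = 4.27e-10) under isotype for stage IV against I. The first step was 3.27 ± 0.49 (adjusted p = 0.000319) under anti-IL5 and 4.66 ± 0.67 (adjusted p = 0.000182) under isotype, and the isotype value was 3.07 without isotype stage II replicate 1. Stage III exceeded stage II by 2.21 ± 0.49 (adjusted p = 0.00131) under anti-IL5 and 3.29 ± 0.53 (adjusted p = 9.63e-05) under isotype. The last step was -0.84 ± 0.40 (adjusted p = 0.147) under anti-IL5, called in a fit of the compared groups alone (adjusted p = 0.000160), and 0.87 ± 0.40 (adjusted p = 0.102) under isotype. With the library number as a block the isotype step was 0.94 and called (adjusted p = 0.0338), and it was also called without isotype stage III replicate 2 (adjusted p = 0.0489). In mean CPM per kilobase of transcript, antagonist exceeded agonist in all groups except isotype stage I. At stage I Il1rn and Il1b averaged 2.80 and 0.473 CPM per kilobase in anti-IL5 libraries and 0.240 and 0.555 in isotype libraries, where both were near the floor. At stage II they averaged 26.9 and 1.32 in anti-IL5 libraries and 6.52 and 0.546 in isotype libraries. The summed level of neutrophil markers, from a cell type known to express Il1rn, was 707 to 1730 CPM at stage IV and 7270 to 8234 CPM at stage III in anti-IL5 libraries, and 315.5 to 496 CPM at stage IV and 5255 to 7803 CPM at stage III in isotype libraries. At stage IV the anti-IL5 libraries were higher than the isotype libraries without overlap in this sum. Il1rn was lower in them without overlap, at 156 to 186 CPM against 204 to 397 CPM, and was not called (adjusted p = 0.643). That sum was largely Ngp at stage III, and single markers differed from it: Mpo averaged 99.2 CPM at stage IV and 37.3 CPM at stage III under anti-IL5, and 48.8 CPM at stage IV and 13.1 CPM at stage III under isotype. At stage IV Cxcr2 averaged 2.41 CPM in anti-IL5 and 5.14 CPM in isotype libraries. Their part in the Il1rn values was not tested.

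Il1rn lies on the plus strand at 2:24336853-24351494 (mm10), and RefSeq lists 3 windows ahead of its start sites. The gene is known to give secreted and intracellular forms of the antagonist from alternative first exons, and gene counts do not say which start was used. The outermost windows, chr2:24336610-24336859 and chr2:24345121-24345370 on the plus strand of GRCm38.p6, are shown because the gene rose with maturation more than any other of the 9. Capitals mark an AP-1 match.
Il1rn, upstream window: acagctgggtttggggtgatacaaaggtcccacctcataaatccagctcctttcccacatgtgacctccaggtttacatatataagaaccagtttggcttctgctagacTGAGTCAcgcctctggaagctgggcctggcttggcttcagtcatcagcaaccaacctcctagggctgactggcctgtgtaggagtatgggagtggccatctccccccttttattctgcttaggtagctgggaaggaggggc
Il1rn, downstream window: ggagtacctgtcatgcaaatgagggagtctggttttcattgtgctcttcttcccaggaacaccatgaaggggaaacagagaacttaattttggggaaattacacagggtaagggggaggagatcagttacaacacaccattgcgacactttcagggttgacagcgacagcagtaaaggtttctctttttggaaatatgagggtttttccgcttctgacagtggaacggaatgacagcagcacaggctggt
The upstream window held 1 AP-1 match, and the downstream window held no match to the 4 motifs.

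Il15, which encodes a cytokine that sustains natural killer and memory CD8 T cells, fell with maturation and was higher under anti-IL5. In the earliest stage it had 55.2, 62.2 and 62.8 CPM in anti-IL5 libraries, against 42.4, 37.7 and 43.3 CPM in isotype libraries. Its stage II level was 33.9 and 46.6 CPM in anti-IL5 libraries, against 28.3 and 26.0 CPM in isotype libraries. Each anti-IL5 library exceeded each isotype library of its stage. Stage III gave 33.6, 25.8 and 30.4 CPM in anti-IL5 libraries, against 12.5, 14.2 and 24.0 CPM in isotype libraries. Stage IV gave 12.5, 7.29 and 15.9 CPM in anti-IL5 libraries, against 2.81, 0.682 and 3.09 CPM in isotype libraries, where it had 33, 9 and 33 counts. The antibodies did not overlap at these stages either, and the isotype libraries of stage IV were the lowest of all 22. Ordered by mean, the groups ran from anti-IL5 stage I down to isotype stage IV, and the anti-IL5 groups of stages II, III and IV each overlapped the isotype group of the stage before.

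At stage IV the log2 difference of Il15 between anti-IL5 and isotype was 2.46 ± 0.37 (adjusted p = 0.000933), and that call held without each of the 6 libraries. At the earlier stages it was 0.55 ± 0.31 (adjusted p = 0.376) at stage I, 0.57 ± 0.39 (adjusted p = 0.580) at stage II and 0.82 ± 0.32 (adjusted p = 0.134) at stage III, none called. In a fit of the stage I libraries alone the first of these was called (adjusted p = 0.0350). Averaged over stages it was 1.099 ± 0.18 (adjusted p = 0.000164), a call that held without each single library. The effect at stage IV minus that at stage III was 1.63 ± 0.49 (adjusted p = 0.146), which DESeq2 called (adjusted p = 0.0400), as it did the interaction of stage and antibody (0.0101, against 0.126 with edgeR). Stage IV was below stage I by a log2 change of -2.33 ± 0.33 (adjusted p = 2.94e-06) under anti-IL5 and -4.25 ± 0.38 (adjusted p = 2.79e-09) under isotype. The larger part of that lay in the last step, at -1.33 ± 0.33 (adjusted p = 0.00468) under anti-IL5 and -2.96 ± 0.37 (adjusted p = 2.35e-06) under isotype. The earlier steps were -0.58 ± 0.36 (adjusted p = 0.325) and -0.43 ± 0.35 (adjusted p = 0.352) under anti-IL5, and -0.60 ± 0.36 (adjusted p = 0.324) and -0.68 ± 0.36 (adjusted p = 0.140) under isotype. The step from stage II to III under isotype was called without isotype stage III replicate 3 (adjusted p = 0.0374). It was also called with the library number as a block (adjusted p = 0.0434) and with the block within antibody (0.0394).

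Il16, whose precursor protein is cleaved to release a chemoattractant for CD4+ cells, rose with maturation and was higher under anti-IL5 at stages I, II and III. Stage I gave 109, 116 and 95.0 CPM in anti-IL5 libraries, against 71.1, 52.8 and 65.6 CPM in isotype libraries. In stage II cells it had 204 and 188 CPM in anti-IL5 libraries, against 103 and 101 CPM in isotype libraries. The anti-IL5 libraries were the higher ones without overlap. Stage III gave 423, 534 and 542 CPM in anti-IL5 libraries, against 292, 386 and 264 CPM in isotype libraries. Stage IV gave 597, 642 and 657 CPM in anti-IL5 libraries, against 497, 529 and 444 CPM in isotype libraries. Here too the anti-IL5 libraries were higher without overlap, as those of Il15 were at each stage. Stage II held 2 libraries in each arm, and how many of all genes separate in this way was not counted. Ordered by mean, anti-IL5 stage IV stood first and isotype stage I last, anti-IL5 stage III overlapped isotype stage IV, and anti-IL5 stage I overlapped isotype stage II.

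The log2 difference of Il16 between anti-IL5 and isotype was 0.76 ± 0.15 (adjusted p = 0.00556) at stage I, 0.94 ± 0.19 (adjusted p = 0.0135) at stage II, 0.67 ± 0.15 (adjusted p = 0.00918) at stage III and 0.37 ± 0.15 (adjusted p = 0.408) at stage IV. Averaged over stages it was 0.68 ± 0.08 (adjusted p = 6.24e-06), a call that held without each single library. The single-stage calls were close to the threshold when a library was left out. They were lost at stage I without isotype stage I replicate 2 (adjusted p = 0.0614), at stage II without anti-IL5 stage II replicate 1 (adjusted p = 0.0836) or isotype stage II replicate 2 (adjusted p = 0.0898), and at stage III without anti-IL5 stage III replicate 3 (adjusted p = 0.0582) or isotype stage III replicate 3 (adjusted p = 0.0677). The stage II call was also lost in a fit of the 4 libraries of that stage alone (adjusted p = 0.574). With maturation Il16 rose by a log2 change of 2.56 ± 0.16 (adjusted p = 1.67e-11) under anti-IL5 and 2.96 ± 0.16 (adjusted p = 1.92e-12) under isotype for stage IV against I. Its largest step was stage III against II, at 1.35 ± 0.18 (adjusted p = 3.65e-06) under anti-IL5 and 1.62 ± 0.18 (adjusted p = 1.59e-06) under isotype. Stage II exceeded stage I by 0.88 ± 0.17 (adjusted p = 0.00158) under anti-IL5 and 0.69 ± 0.17 (adjusted p = 0.0113) under isotype, the isotype call being lost without isotype stage I replicate 2 (adjusted p = 0.0637) or isotype stage II replicate 1 (adjusted p = 0.0755) and in a fit of the compared groups alone (adjusted p = 0.0842). The last step was 0.34 ± 0.15 (adjusted p = 0.108) under anti-IL5 and 0.64 ± 0.15 (adjusted p = 0.00211) under isotype. Exons of Il16 overlap those of Stard5 and 2310044K18Rik in GENCODE, and without strand reads in the shared bases cannot be told apart. Stard5 averaged between 11.6 and 26.2 CPM in the 8 groups, below the lowest Il16 group mean of 63.2 CPM, and its log2 difference between the antibodies averaged over stages was 0.12 ± 0.13 (adjusted p = 0.58).

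Tgfb1, which encodes transforming growth factor beta 1, a regulator of matrix deposition and immune tolerance, rose between stages I and IV and was not called between the antibodies. At stage I it had 34.1, 33.1 and 25.6 CPM in anti-IL5 libraries, against 49.3, 52.2 and 48.4 CPM in isotype libraries. Stage II gave 17.7 and 38.1 CPM in anti-IL5 libraries and 16.7 and 68.1 CPM in isotype libraries. Isotype was the higher without overlap at stage I, and at stage II the 2 libraries of each arm lay far apart. Stage III gave 62.9, 59.5 and 74.2 CPM in anti-IL5 and 99.1, 65.8 and 51.5 CPM in isotype libraries. Stage IV gave 67.9, 67.6 and 119 CPM in anti-IL5 and 164, 83.9 and 82.4 CPM in isotype libraries. In each arm 1 library of stage IV stood well above the other 2. The neighbours in the order of group means overlapped except anti-IL5 stage III above isotype stage I. Stage IV exceeded stage I by a log2 change of 1.46 ± 0.40 (adjusted p = 0.00322) under anti-IL5 and 1.14 ± 0.39 (adjusted p = 0.0142) under isotype, the isotype call being lost without isotype stage IV replicate 1 (adjusted p = 0.111).

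Between the antibodies the log2 difference of Tgfb1 was -0.69 ± 0.39 (adjusted p = 0.371) at stage I, -0.60 ± 0.48 (adjusted p = 0.653) at stage II, -0.14 ± 0.38 (adjusted p = 0.889) at stage III and -0.38 ± 0.38 (adjusted p = 0.903) at stage IV. In a fit of the stage I libraries alone it was called (adjusted p = 0.0179). Averaged over stages it was -0.45 ± 0.21 (adjusted p = 0.138), and called without isotype stage II replicate 1 (adjusted p = 0.0138). The middle step was called under anti-IL5, at 1.23 ± 0.45 (adjusted p = 0.0372), and lost without anti-IL5 stage II replicate 1 (adjusted p = 0.329), anti-IL5 stage III replicate 1 (adjusted p = 0.0537), anti-IL5 stage III replicate 2 (adjusted p = 0.0517) or anti-IL5 stage III replicate 3 (adjusted p = 0.0839) and with no filter on low counts (adjusted p = 0.109); it was 1.89 without anti-IL5 stage II replicate 2. The anti-IL5 call was also lost with the library number as a block within antibody (adjusted p = 0.0517). The middle step under isotype was 0.76 ± 0.44 (adjusted p = 0.192), and was called without isotype stage II replicate 2 (adjusted p = 0.00273). The first step was -0.14 ± 0.44 (adjusted p = 0.882) under anti-IL5 and -0.23 ± 0.44 (adjusted p = 0.796) under isotype, the isotype step being called at -1.58 without isotype stage II replicate 2 (adjusted p = 0.0328). The last step was 0.37 ± 0.38 (adjusted p = 0.533) under anti-IL5 and 0.61 ± 0.38 (adjusted p = 0.236) under isotype.

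Genes that act with these cytokines were described from lists that were assembled with earlier results of these data known, so the counts describe the lists and support nothing about them. Among receptors of the 10 cytokines, more genes rose with maturation than fell. Of 19 receptor genes 14 were tested, and for stage IV against I 8 rose and 1 fell under anti-IL5 and 8 rose under isotype, with a median log2 change of 1.63 under anti-IL5 and 1.64 under isotype. Over all genes these medians were -0.06 under anti-IL5 and -0.04 under isotype, with 63.5% and 66.2% called. Both directions together, 9 of 14 receptor genes were called under anti-IL5 and 8 of 14 under isotype. By direction, 3802 of all 12387 genes tested rose and 4066 fell under anti-IL5, and 4002 rose and 4201 fell under isotype. Tgfbr2, the ligand-binding TGF-beta receptor, averaged 153 ± 14.6 CPM at stage IV and 14.3 ± 2.89 CPM at stage I under anti-IL5 (log2 change 3.42 ± 0.26, adjusted p = 2.36e-10). Il4ra, the shared receptor chain of IL-4 and IL-13, averaged 56.1 ± 13.7 CPM at stage IV and 8.43 ± 3.13 CPM at stage I (log2 change 2.74 ± 0.34, adjusted p = 4.65e-07). With the stages averaged, 2 receptor genes were higher and 1 lower under anti-IL5 than under isotype, 3 of 14 tested where 18.9% of all genes were called. Il1r2, the IL-1 decoy receptor, was lower, at -0.99 ± 0.23 (adjusted p = 0.00397). Tnfrsf1a, a TNF receptor, and Il15ra, the receptor chain that presents IL-15, were higher, at 0.78 ± 0.19 (adjusted p = 0.00562) and 0.79 ± 0.22 (adjusted p = 0.0137). At stage III Il1r2 averaged 16.4 ± 3.89 CPM in anti-IL5 and 78.7 ± 49.6 CPM in isotype libraries (log2 difference -2.26 ± 0.43, adjusted p = 0.00310). At stage I Tnfrsf1a averaged 18.8 ± 6.88 CPM in anti-IL5 and 7.38 ± 2.90 CPM in isotype libraries (log2 difference 1.36 ± 0.36, adjusted p = 0.0341).

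Genes for processing and release of the cytokines were also called higher more often than lower. Of 27 listed 21 were tested, and for stage IV against I 13 rose and 3 fell under anti-IL5 (63.5% of all genes called) and 11 rose and 2 fell under isotype (66.2%). Both directions together, 16 of 21 were called under anti-IL5 and 13 of 21 under isotype. Gsdmd, the pore-forming protein through which IL-1 beta leaves cells, and Snap23, a membrane fusion protein, were among those that rose most clearly, at 1.16 ± 0.13 (adjusted p = 1.16e-07) and 2.28 ± 0.21 (adjusted p = 4.97e-09) under anti-IL5. Between the antibodies with stages averaged 3 of 21 were called where 18.9% of all genes were, all higher under anti-IL5: Casp1, the protease that cleaves pro-IL-1 beta, at 0.83 ± 0.14 (adjusted p = 0.000246), Gsdmd at 0.36 ± 0.07 (adjusted p = 0.00102), and Mmp9, a gelatinase that can activate latent TGF-beta, at 1.58 ± 0.39 (adjusted p = 0.0105).

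Most genes of a list for restraint of cytokine production rose with maturation. Of 15 listed 14 were tested, and for stage IV against I 9 rose and 2 fell under anti-IL5 (63.5% of all genes called) and 10 rose and 1 fell under isotype (66.2%). Zfp36, which encodes the RNA-binding protein tristetraprolin that speeds decay of Tnf messenger RNA, rose by 2.49 ± 0.25 (adjusted p = 1.76e-08) under anti-IL5 and 2.78 ± 0.25 (adjusted p = 3.00e-09) under isotype. Between the antibodies with stages averaged 6 of 14 were called where 18.9% of all genes were, all higher under anti-IL5, and the 5 with the smallest adjusted p were Zfp36 at 0.70 ± 0.13 (adjusted p = 0.000457), its relative Zfp36l2 at 0.61 ± 0.17 (adjusted p = 0.0131), the IL-1 receptor family member Sigirr at 0.38 ± 0.11 (adjusted p = 0.0240), the IL-18 binding protein gene Il18bp at 0.69 ± 0.21 (adjusted p = 0.0246) and the phosphatase gene Ptpn6 at 0.30 ± 0.10 (adjusted p = 0.0334).

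Some other cytokine and chemokine genes of eosinophils differed strongly between stages. Of 42 listed 19 were tested, and for stage IV against I 10 rose and 3 fell under anti-IL5 (63.5% of all genes called) and 11 rose and 6 fell under isotype (66.2%). Ltb, which encodes lymphotoxin beta, averaged 514 ± 61.6 CPM at stage IV and 7.69 ± 2.62 CPM at stage I under anti-IL5 (log2 change 6.07 ± 0.36, adjusted p = 1.02e-11). Ccl6 and Ccl9, both CC chemokine genes, rose by 4.96 ± 0.40 (adjusted p = 8.72e-10) and 6.75 ± 0.53 (adjusted p = 2.18e-09). With stages averaged 4 of 19 were called, where 18.9% of all genes were. Tnfsf14 and Ltb, both TNF superfamily ligands, were higher under anti-IL5 at 0.52 ± 0.11 (adjusted p = 0.00170) and 0.47 ± 0.16 (adjusted p = 0.0454). Mif, the macrophage migration inhibitory factor gene, and Vegfa, the vascular endothelial growth factor A gene, were lower at -0.74 ± 0.12 (adjusted p = 0.000219) and -0.80 ± 0.19 (adjusted p = 0.00581).

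Of 16 regulators of type 2 cytokine transcription 13 were tested, and 12 rose under anti-IL5 (63.5% of all genes called) and 11 under isotype (66.2%) for stage IV against I, with none lower. Stat6, which transmits the IL-4 signal, rose by 2.88 ± 0.19 (adjusted p = 2.78e-11) under anti-IL5 and 3.14 ± 0.19 (adjusted p = 6.61e-12) under isotype. Between the antibodies with stages averaged 3 were higher and 1 lower under anti-IL5, 4 of 13 where 18.9% of all genes were called. Bcl6, a transcriptional repressor, was higher at 1.85 ± 0.25 (adjusted p = 2.79e-05), with Stat6 and Junb at 0.38 ± 0.09 (adjusted p = 0.00594) and 0.66 ± 0.18 (adjusted p = 0.0133). Gata2, a transcription factor of basophils, mast cells and early eosinophil precursors, was lower at -0.75 ± 0.12 (adjusted p = 0.000145). At stage III Gata2 averaged 131 ± 33.9 CPM in anti-IL5 and 377 ± 138 CPM in isotype libraries (log2 difference -1.53 ± 0.23, adjusted p = 0.000329).

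The genes most like the other cytokine genes were named by Pearson r of log2 CPM over the 22 libraries, as a description of libraries that share stages, with no test. Il16 was followed most closely by Gpr65 (r = 0.994), an acid-sensing receptor gene, and by Fyb and Arhgap25 (0.991 and 0.990). Il1rn was followed by Myo1f, Fgr and Mindy2 (r = 0.988, 0.986 and 0.984). Il4 was followed by Camk1, Lst1 and Bin3 (r = 0.981, 0.980 and 0.979). For Il15 the nearest were Ccdc14, Gfi1, a transcriptional repressor of granulocyte development, and Adgrl4 (r = 0.925, 0.914 and 0.902). For Tnf they were Srgap3, Dgkg and Marcksl1 (r = 0.935, 0.921 and 0.915). For Il6 they were Iqcg, Selenom and Leprotl1 (r = 0.930, 0.909 and 0.909), and for Tgfb1 Sf3a2, Eif4g2 and Bag6 (r = 0.938, 0.935 and 0.928). Il1b had the loosest neighbours, Pigm, Slfn1 and the neutrophil chemokine receptor gene Cxcr2 (r = 0.694, 0.602 and 0.597).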

How the data were processed

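Processed tables of whole-number counts per gene were used as deposited by the authors, 1 table for each of 22 libraries of sorted mouse bone marrow eosinophils. Per the labels' protocols, cDNA was made with SMART-Seq v4 and libraries with Nextera XT, a pair of kits that does not mark strand. The submitters' processing notes name mm10, DESeq2 and STAR 2.6.1a without their roles. The counter, its strand setting and the annotation were not given in the sources used here. The 2 rows that name no gene, no_feature and ambiguous, took 12.7% to 22.1% and 1.86% to 2.39% and were left out. The members and lists were chosen with earlier results of these data known.

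From the counts, edgeR 4.0.16 (R 4.3.3) was fitted to all 22 libraries as 8 groups of stage and antibody, with TMM factors, filterByExpr (12387 of 24982 genes kept) and robust glmQLFit and glmQLFTest. Benjamini-Hochberg adjustment ran over all genes tested. The SE of a log2 fold change was its size over the square root of F. The script was tested on simulated data with known fold changes. Named genes were all 10 members, and for each list up to 5 called genes by smallest adjusted p in a comparison. The 3 genes most like a member were taken among tested genes with a group mean of at least 10 CPM, on log2 CPM with a prior count of 2. Gene positions are from GENCODE vM21 (GRCm38, the assembly of mm10) and promoter windows of 8 of the 10 genes from RefSeq on GRCm38.p6; Il15 and Osm are named only. The alternatives were RLE size factors, DESeq2 1.42.0, no filter, the compared groups alone, plain CPM, library number as a block, and each library left out. A limma-voom fit (limma 3.58.1) with number as a random block, and the block within antibody for differences of effect, were added after seeing the data.

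The pairing came from the labels' numbers, which no label explains. Deviations of equal-numbered isotype libraries from their group means correlated at 0.124 to 0.208 between stages IV and III in all 3 pairs, over 0.1 in each, so that comparison was also read with the block. The rule needed at least 3 pairs, and steps that include stage II have 2, so they could not meet it. The floor covers counting error only, and the SE and SD include the spread between libraries.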

Additional observations from a re-analysis of the deposited data

Results flagged for a closer look

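Il1rn, the IL-1 receptor antagonist gene, was singled out because its difference between anti-IL5 and isotype changed with maturation stage in a test of the interaction itself (edgeR adjusted p = 0.0281). The log2 difference was 3.45 ± 0.67 at stage I, 2.06 ± 0.54 at stage II, 0.98 ± 0.40 at stage III and -0.73 ± 0.40 at stage IV, and the libraries of the 2 antibodies did not overlap at any stage. How many of all genes separate in this way was not counted. The call was lost without anti-IL5 stage I replicate 1 (adjusted p = 0.0584), isotype stage I replicate 2 (adjusted p = 0.0650), isotype stage I replicate 3 (adjusted p = 0.0688), anti-IL5 stage III replicate 3 (adjusted p = 0.0503), anti-IL5 stage IV replicate 1 (adjusted p = 0.0524), anti-IL5 stage IV replicate 2 (adjusted p = 0.0721), anti-IL5 stage IV replicate 3 (adjusted p = 0.0763) or isotype stage IV replicate 2 (adjusted p = 0.0650), and with no filter on low counts (0.0840). It held with RLE size factors (adjusted p = 0.0299), with DESeq2 (0.000117) and with the library number as a block (0.0110).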

How the results depend on the processing

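Directions and calls of single genes mostly held among 115 values checked, which are fewer than all results of the 9 tested genes. With RLE size factors 114 of 115 kept their direction and call, with no filter 111, with DESeq2 107 and with the library number as a block 107. In plain CPM, without TMM scaling, 19 of 80 group means moved. TMM factors were 1.141 to 1.234 at stage I and 0.850 to 0.894 at stage IV, so rises between these stages were smaller in plain CPM. For Il4 under isotype the means were 42.2 CPM at stage I and 165.5 CPM at stage IV in plain CPM, against 35.65 and 186.5 CPM with TMM. The number of cytokine genes called for anti-IL5 against isotype at stage I was 3, with 5 in a fit of the compared groups alone and 1 to 3 without 1 library. At stage II it was 1, with 2 by DESeq2, 2 with the replicate block, 0 in the compared groups alone and 0 to 2 without 1 library. At stage III it was 1, with 2 by DESeq2, 2 in the compared groups alone, 2 with the replicate block and 0 to 1 without 1 library. For stage II against I it was 2 to 4 under anti-IL5 and 2 to 6 under isotype without 1 library. For stage III against II it was 4 under anti-IL5, with 2 when no filter was used and 2 to 4 without 1 library, and 3 under isotype, with 5 by DESeq2, 6 with the replicate block, 6 with the block within antibody and 3 to 5 without 1 library. DESeq2 called 2 for the effect at stage IV minus III and 2 for the interaction, where no filter gave 0 and leaving out 1 library 0 to 1. Directions that turned when 1 library was left out belonged to results not called in the main test. For anti-IL5 against isotype the log2 difference ranged at stage II from -0.23 to 0.39 for Il4, from -0.043 to 1.23 for Tnf, from -0.51 to 1.51 for Osm and from -1.27 to 0.75 for Tgfb1. Tgfb1 ranged from -0.33 to 0.16 at stage III and from -0.70 to 0.028 at stage IV, and Tnf from -0.38 to 0.20 at stage IV, where the replicate block gave 0.0045. For stage II against I, Tgfb1 ranged from -0.80 to 0.30 under anti-IL5 and from -1.58 to 0.44 under isotype, and Osm from -1.10 to 0.90 under isotype. For stage III against II, Tnf ranged from -0.33 to 0.24 under anti-IL5 and from -0.68 to 0.58 under isotype. For stage IV against III under anti-IL5, Osm ranged from -0.48 to 0.033. The scarce Il1b turned in several comparisons. Between the antibodies it ranged from -1.40 to 0.35 at stage I and from -0.031 to 3.17 at stage III. The cause was not tested. Genes called over all genes numbered 548 at stage I (184 to 1123 over the alternatives), 217 at stage II (1 to 467), 789 at stage III (0.39 to 1.63 times that number) and 130 at stage IV (68 to 257) between the antibodies, 1539 (509 to 1972) and 1319 (386 to 1682) for stage II against I under anti-IL5 and isotype, 4591 (2951 to 4955) for stage III against II under isotype, 79 (38 to 255) for the effect at stage IV minus III and 133 (50 to 503) for the interaction. Library numbers paired the samples by the correlations only for stage IV against III under isotype among the comparisons given. Over 30 equal-numbered pairs within an antibody r was 0.023 to 0.208, over 0.1 in 16. For 22 of 22 libraries the mean r with their own number exceeded the mean r with all other numbers pooled. This is a hint from the data and not the design. Within its arm, isotype stage II replicate 1 still correlated more with number 3 (0.069 to 0.125) than with its own number (0.023 to 0.031). Between the antibodies at the same stage, r was above 0 in 11 of 11 equal-numbered pairs, at 0.013 to 0.338. Of 20 such pairs of unequal number, 5 were above 0. The 2 equal-numbered pairs over 0.1 were at stage II, where the 2 libraries of a group mirror each other. The main tests between the antibodies used no block. The block moved calls of single genes in 7 of 115 values across the arms and in 10 of 75 within an antibody, 2 of them in the paired comparison. A limma-voom fit with number as a random block (correlation 0.107), chosen after seeing the data, called 4 genes for the mean over stages. Single libraries were left out for the cytokine genes and not for the genes of the pathway lists. Il13 had few counts in any library, which limits how small a difference of it can be seen. Il1b had low counts and also a wide spread between libraries, with 7, 62 and 113 counts in anti-IL5 and 0, 13 and 84 in isotype libraries of stage III.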
